A study of Mus musculus with 12 samples.

Results

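The aortic wall of untreated mice with a single functional elastin allele is described here from 4 RNA-seq libraries, the samples labelled control, out of 12 samples in the series. The mice were C57BL/6J, carried the genotype Elastin +/-, were 3 months old and drank plain water. The tissue was the aorta from the origin of the left subclavian artery down to the diaphragm. The other 8 samples came from Elastin +/- C57BL/6J mice of the same age given minoxidil in the drinking water, a drug that relaxes vessels by opening ATP-sensitive potassium channels. Of those, 4 were taken after 2 weeks on the drug and 4 after 2 weeks on and 1 week off. Every group carries the elastin deletion, so no library shows wild-type aorta, and the Eln level cannot check the genotype here. No contrast is made. Levels are described within and between the 4 control libraries.

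The aorta has an inner endothelium, a media of smooth muscle cells between elastic lamellae, and an outer adventitia of fibroblasts and collagen. Smooth muscle cells contract through smooth-muscle actin and myosin and also secrete most of the medial matrix. Elastic fibres are built from cross-linked elastin on a scaffold of fibrillin microfibrils, with fibulins, microfibril-associated proteins and lysyl oxidases taking part in assembly. Most of the elastin of a mammalian artery is laid down around birth. Loss of an elastin allele leads to a narrower, stiffer aorta and high blood pressure.

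Levels are given in TPM, which are counts per base of exon, rescaled to the same total over the 21968 protein-coding genes in each library. The control libraries held 58825539 to 77423200 counts, of which 70.3% to 74.99% fell on protein-coding genes. Spearman correlations of gene counts between the control libraries ran from 0.979 to 0.983 across protein-coding genes, which are not independent replicates. At a mean of 1 TPM or more, 13553 protein-coding genes were detected, 61.7% of those annotated, and 13004 of them reached 1 TPM in all 4 libraries. A mean of 100 TPM was reached by 1443 genes, 1000 TPM by 113 genes and 10000 TPM by 8 genes.

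The libraries differed first in their make-up. The gene with the highest mean was Gm10800, a predicted gene model at chr2:98666547-98667301 (GRCm38, minus strand), with 27654, 5221, 25608 and 69807 TPM in controls 1 to 4. Control 4 stood at 13.4 times control 2 for this model. A further 11 models on chromosomes 2, 9 and 14 share 9.36% to 35.1% of their 25-base words with Gm10800 and followed the same order, lowest in control 2 and highest in control 4. Models of this kind are known to lie in satellite-like repeat sequence, where reads map to many copies. Together the 12 models held 4.44%, 0.919%, 4.41% and 10.9% of protein-coding TPM. The 4 adult globin genes, which red blood cells express, held 2.76%, 4.34%, 4.39% and 9.72%. Control 4 was highest for both. The 13 mitochondrially encoded genes were steadier, at 7.04% ± 0.361 (SD, n = 4).

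Because TPM shares a fixed total, a larger share for some genes lowers the rest. Over the 8891 genes at 10 TPM or more, the median log2 deviation from the gene's own mean was 0.07 in control 1, 0.13 in control 2, 0.00 in control 3 and -0.21 in control 4. With edgeR's TMM factors these medians lay between -0.02 and 0.01. On the TPM scale 50.9% of these genes had their highest value in control 2 and 81.9% their lowest in control 4, against 22.1% and 30.3% with TMM factors. Values and SDs below are on the TPM scale unless TMM is named.

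**Figure D1:**
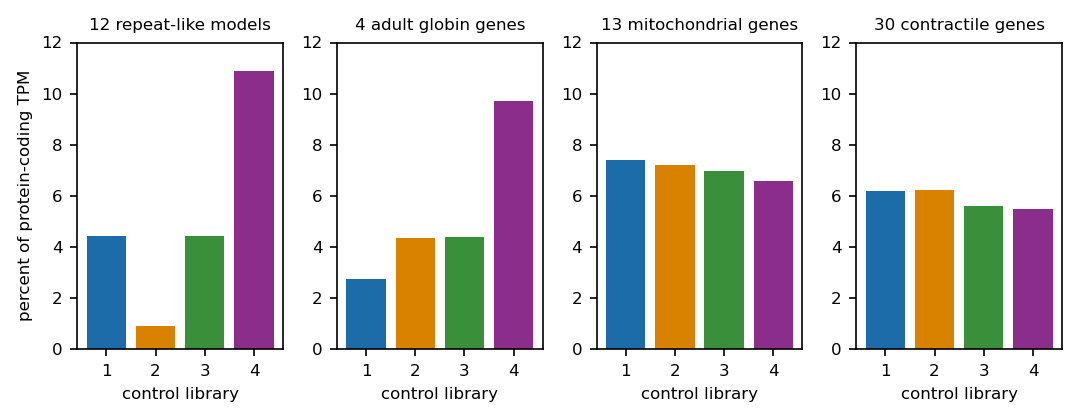
Share of protein-coding TPM in percent (y axis, the same in all panels) taken by 4 groups of genes in control libraries 1 to 4 (x axis), 1 bar per library. The repeat-like models run from 0.919% in control 2 to 10.9% in control 4 and the globins from 2.76% to 9.72%, while the mitochondrial genes stay between 6.57% and 7.41% and the contractile genes between 5.48% and 6.23%.

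Short noncoding RNAs dominate when every annotated gene is scaled by length. Protein-coding genes then held only 20.6% ± 2.12 of TPM (SD, n = 4), although they held 73.1% of counts on average. Genes typed as miRNA held 50.9% of TPM but only 4.56% of counts on average. Of these, 4 on chromosome 12, between 70 and 80 bases long, led the list. The signal recognition particle RNA genes Rn7s1 and Rn7s2 followed behind the mitochondrial rRNA mt-Rnr2, with mean counts of 966916 and 966416, and reads of such near-identical copies cannot be told apart in this counting. All levels below are taken over protein-coding genes alone.

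Among named nuclear genes other than globins, the smooth-muscle actin gene Acta2 was the most abundant in the aorta. Acta2 (chr19:34241090-34255336, minus strand) stood at 18409, 17767, 15640 and 16771 TPM, a mean of 17147 ± 1210 (SD, n = 4), with a rank of 3 to 8 among all protein-coding genes of a library. Its lowest library was above the highest library of the next such gene. Myl9, the regulatory light chain of smooth-muscle myosin, followed at 10202, 10235, 9747 and 8750 TPM. The elongation factor Eef1a1 stood at 8576 ± 798 TPM. The actin-binding protein transgelin, from Tagln, stood at 6894, 7136, 6560 and 6396 TPM. An antisense gene covers 67.9% of the Tagln exon bases, and unstranded counting cannot tell the pair apart.

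The order then became close. Next came the actin-severing factor Dstn (6681 ± 692), the actin-sequestering thymosin Tmsb4x (6581 ± 345), the calcification inhibitor Mgp (6271 ± 746) and the secreted growth-factor binder Igfbp7 (6085 ± 229). Filamin A, which cross-links actin at the membrane, stood at 5359 ± 623 TPM from Flna. Of the 29 neighbouring pairs among the first 30 named nuclear genes, only 3 had ranges that did not overlap, namely Acta2 over Myl9, Eef1a1 over Tagln, and Vim over Myl6. The order was the same in all 4 libraries for 8 pairs. The ranks of the other pairs are not separated by these libraries.

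Some high ranks belong to genes whose exons overlap those of another gene, and the part of shared reads in these ranks was not tested. Ccdc107 ranked 26th at 3732 ± 201 TPM, and its exons overlap, over 8.02% of their bases, those of the abundant noncoding RNA gene Rmrp on the opposite strand (chr4:43492788-43493058). The counts of Ccdc107 were 87274, 93846, 79601 and 116853, and those of Rmrp 92230, 99533, 84791 and 125415. Gm20481 at 2932 TPM lies wholly within the exons of Hspa1a, on the opposite strand. Of the first 150 genes, 20 shared at least 20% of their exon bases with another gene, among them Ctgf (23.2%), Rpl23a (62.3%) and Ftl1 (34.6%).

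**Figure D2:**
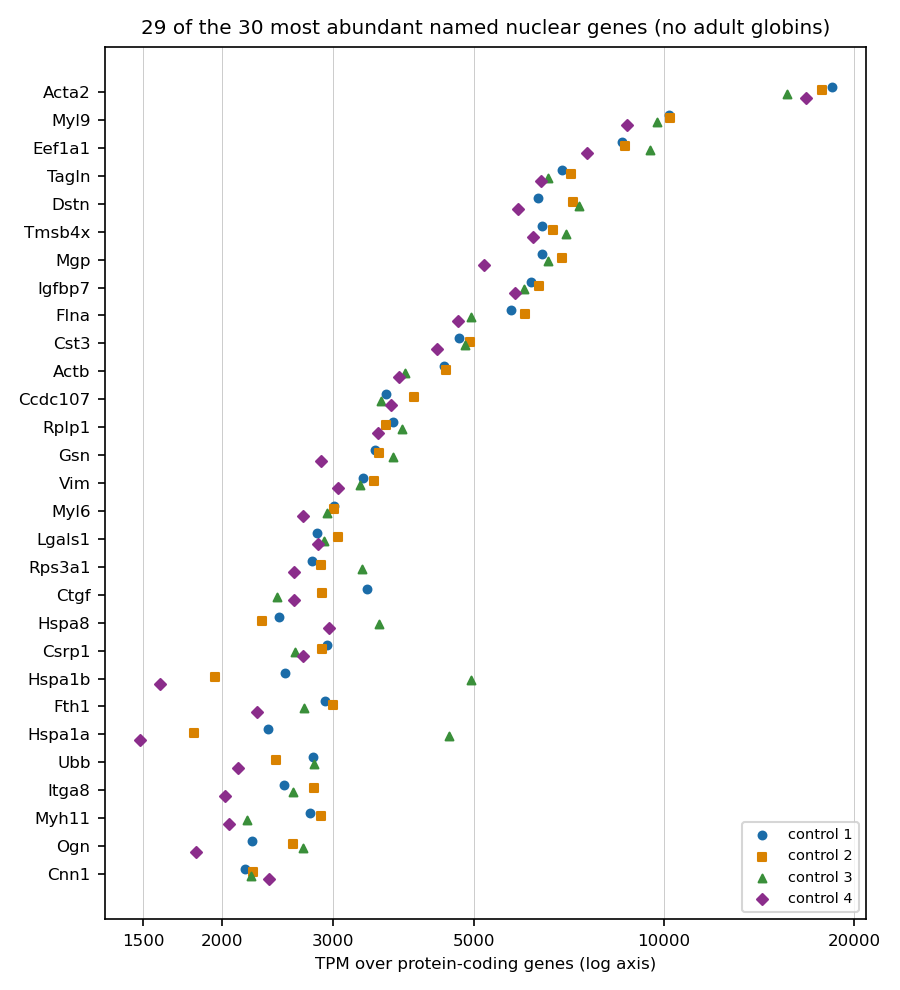
TPM (x axis, log scale) of 29 of the 30 named nuclear genes with the highest mean, adult globins left out, with 1 point per control library. Acta2 stands clear at 15640 to 18409 TPM, the heat-shock genes Hspa8, Hspa1a and Hspa1b are highest in control 3, and most neighbours overlap.

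The 10 most abundant genes held 16.6% ± 5.27 of protein-coding TPM (SD, n = 4), with a range of 12.99% to 24.4%, and the upper end was control 4. The first 100 genes held 38.4% ± 4.94 and the first 1000 held 67.7% ± 3.09. With the repeat-like models, adult globins and mitochondrial genes left out of the total, the first 10 named genes held 9.46% ± 0.26 and the first 100 held 27.8% ± 0.797.

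Of the 113 genes at 1000 TPM or more, 24 encode cytosolic ribosomal proteins, 11 belong to the contractile list, 8 are mitochondrially encoded, 6 belong to the list of wall matrix genes outside the elastic fibre, 5 are heat-shock genes, 5 are repeat-like models, 4 are adult globins and 2 are collagen chains. As classes, the 79 ribosomal protein genes held 6.39% ± 0.498 of TPM, with Rplp1 first at 3686 TPM. The 84 nuclear respiratory chain genes held 1.60% ± 0.0773, led by Cox8a at 913 TPM, and the 39 proteasome genes held 0.429% ± 0.0296. The 30 contractile genes held 5.87% ± 0.385. All collagen chains together held 0.693% ± 0.0931, and the 23 elastic fibre genes 0.403% ± 0.038.

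All 30 genes of the contractile list reached 1 TPM and 25 reached 100 TPM. Of all protein-coding genes, 61.7% and 6.57% did. The list was chosen with earlier results of these data known. Within each protein family a single member usually carried most of the transcript. Acta2 made up 73.6% ± 1.41 of the actins (SD, n = 4). Cytoplasmic beta-actin, from Actb, made up 17.9% ± 0.545, ahead of Actg1 at 1758 ± 274 TPM and of the enteric smooth-muscle actin Actg2 at 209 ± 31.2 TPM. The striated-muscle actins Actc1 and Acta1 stood at 6.43 and 2.86 TPM.

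The smooth-muscle myosin heavy chain gene Myh11 stood at 2760, 2865, 2189 and 2049 TPM. Controls 1 and 2 were above controls 3 and 4. Its share of the heavy chains was 92.5% ± 0.287, against 4.68% for the non-muscle chain Myh10 and 74.8 TPM for Myh9. Myl9 held 93.5% ± 0.487 of the regulatory light chains. Myl6 held 99.1%, 99.1%, 98.8% and 90.9% of the essential light chains. In control 4, its lowest library, the adjacent gene Myl6b stood at 261 TPM, against 19.7 to 25.8 TPM in controls 1 to 3.

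Tropomyosin, which lies along the actin filament, was spread over more genes. Tpm2 stood at 2029 ± 108 TPM, Tpm1 at 1078 ± 38.6 and Tpm4 at 561 ± 38. Their shares barely moved between libraries, with 54.3% ± 0.26 for Tpm2. This order depends on gene length: by raw counts Tpm1 led, and with the longest reference transcript as length Tpm1 rose to 2008 TPM beside 2253 for Tpm2. The inhibitory calponin Cnn1 stood at 2252 ± 83.8 TPM, with 74.5% ± 0.973 of its family. Filamin was Flna to 96.9% ± 0.137, and alpha-actinin was Actn1 to 72.4% ± 2.1 with Actn4 at 171 ± 8.92 TPM.

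The regulators of contraction stood below the leading actin, myosin and tropomyosin genes. Myosin light chain kinase, from Mylk, stood at 364 ± 57.3 TPM. The myosin phosphatase subunit Ppp1r12a stood at 380 ± 54.6 TPM and the phosphatase inhibitor Ppp1r14a at 327 ± 19.1 TPM. Lmod1, which nucleates actin filaments in smooth muscle, stood at 254 ± 34.1 TPM, and caldesmon at 117 ± 19.4 TPM from Cald1, or 244 TPM with its longest transcript as length. Vimentin outweighed desmin among the intermediate filaments, with 3291 ± 176 TPM for Vim and 35.6 ± 8.17 for Des. The LIM proteins Csrp1 and Csrp2, which bind the contractile cytoskeleton, stood at 2776 ± 154 and 1742 ± 76.5 TPM.

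Smooth-muscle genes are known to be driven by serum response factor bound to CArG boxes near their start sites. The RefSeq promoters (GRCm38.p6, from 250 bases before to 50 after the start site) of the actin gene at the head of the ranking and of the light chains that pair with myosin are shown for this reason. Capitals mark CArG-like boxes, here CC and GG on either side of 6 bases of which at most 1 is G or C, which reads alike on both strands.
Acta2, chr19:34255324-34255623, minus strand: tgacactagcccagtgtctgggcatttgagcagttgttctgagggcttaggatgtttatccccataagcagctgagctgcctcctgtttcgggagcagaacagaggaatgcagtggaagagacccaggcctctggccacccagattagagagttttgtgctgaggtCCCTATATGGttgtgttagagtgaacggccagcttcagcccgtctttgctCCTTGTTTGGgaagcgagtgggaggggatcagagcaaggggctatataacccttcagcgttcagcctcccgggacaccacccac
Myl9, chr2:156775214-156775513, plus strand: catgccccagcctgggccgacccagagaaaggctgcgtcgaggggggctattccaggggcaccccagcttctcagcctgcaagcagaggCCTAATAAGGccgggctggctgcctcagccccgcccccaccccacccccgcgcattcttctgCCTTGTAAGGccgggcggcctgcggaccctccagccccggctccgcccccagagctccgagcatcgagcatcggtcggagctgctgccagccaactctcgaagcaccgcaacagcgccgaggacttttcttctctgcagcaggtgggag
Myl6, chr10:128492960-128493259, minus strand: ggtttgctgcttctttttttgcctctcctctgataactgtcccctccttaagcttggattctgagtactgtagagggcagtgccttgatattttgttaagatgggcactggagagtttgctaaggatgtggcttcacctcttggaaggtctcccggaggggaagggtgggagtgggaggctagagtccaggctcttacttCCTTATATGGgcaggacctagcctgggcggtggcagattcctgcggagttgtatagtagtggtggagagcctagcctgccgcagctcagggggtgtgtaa
The Acta2 window held 2 CArG-like boxes, beginning 84 and 34 bases before the start site, each with a single G or C in the core. The Myl9 window held 2, beginning 161 and 99 bases before the start site, and the first of them had only A and T in the core. In the Myl6 window the box lay 50 bases before the start site. These distances are from the RefSeq start sites, which for these genes differ from the ends of the deposited gene coordinates. Among all 32851 promoters of the table, 9.98% held such a box and 1.63% held one with only A and T in the core. Of the 31 promoters listed for 26 of the 30 contractile genes, 8 held a box of the first kind and 5 of the stricter kind. Besides these 3 genes, the hits were in Vcl, Ldb3, Pdlim3 and Synm. A match is a description of letters in a window and does not show binding.

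Elastin itself stood far below smooth-muscle actin. Eln (chr5:134702593-134747323, minus strand) stood at 318, 271, 182 and 184 TPM, a mean of 239 ± 67.4 (SD, n = 4), and ranked 577th of the 21968 protein-coding genes. Controls 1 and 2 were above controls 3 and 4, and its counts ran from 21185 to 39985. The CV was 28.2%, against a median of 12.7% over all genes at 10 TPM or more, and with TMM factors the 2 values were 22.7% and 7.81%. Acta2 exceeded Eln by 75.2 times on average, with a range over libraries of 57.9 to 91.4, and by 31.3 ± 6.69 times with the longest transcripts as lengths.

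The place of Eln depends on how its length is taken. The authors' length of 8098 bases joins all annotated exons, while the longest reference transcript has 3853 bases. With the longest transcript of every gene as length, Eln stood at 416 ± 116 TPM and ranked 313th. By the deposited length it came seventh in the elastic fibre list, and by the longest transcript it came second, beside Ltbp1 at 412 TPM. Only the microfibril-associated glycoprotein Mfap4 stood above Eln both ways, at 898 ± 56.9 and 810 TPM.

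Most of the other elastic fibre genes had a smaller CV than Eln. Fibrillin-1 from Fbn1, the backbone of the microfibril, stood at 346, 349, 306 and 272 TPM, and fibrillin-2 from Fbn2 was near 0, at 0.0123 to 0.136 TPM. Fibulin-5 from Fbln5, which binds elastin to cells and cross-linking enzymes, led its family with 51.1% ± 0.379 and stood at 434 ± 49.9 TPM. Fibulin-4, from Efemp2, stood at 95.6 ± 13.1 TPM, while Fbln1 and Fbln2 stood at 120 and 109 TPM. Mfap5 stood at 302 ± 20.4 TPM and Mfap2 only at 7.51 ± 1.5. Of the 23 genes in the list, 21 reached 1 TPM and 14 reached 100 TPM, beside 61.7% and 6.57% of all protein-coding genes. The exceptions at the bottom were Fbn2 and Emilin3.

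Cross-linking and latency genes were shared among several members. Of the lysyl oxidases, which cross-link elastin and collagen, Loxl1 stood at 336 ± 43.4 TPM, Lox at 225 ± 25.4, Loxl3 at 107 ± 5.54 and Loxl2 at 53.9 ± 4.89. The ratio of Loxl1 to Lox was 1.71, 1.35, 1.38 and 1.55. Of the latent TGF-beta binding proteins, which tie the growth factor to microfibrils, Ltbp1 held 50.1% ± 1.95 at 316 ± 33.9 TPM, ahead of Ltbp4 at 139 and Ltbp3 at 105 TPM. Among the ligands themselves Tgfb3 held 84.0% ± 0.904 with 209, 202, 182 and 169 TPM. Tgfb2 stood at 32.9 ± 4.98 TPM and Tgfb1 at 3.55 ± 0.546, so the Tgfb3 level was 54.1 ± 3.15 times that of Tgfb1, or 27.6 times with the longest transcripts as lengths.

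Type III and type I chains led the fibrillar collagens. Col3a1 stood at 2086, 1860, 1882 and 1387 TPM, Col1a2 at 1176, 1051, 1083 and 792, and Col1a1 at 711, 611, 462 and 483. Type I collagen protein holds a pair of alpha-1 chains for each alpha-2 chain, yet at the transcript level Col1a2 exceeded Col1a1 by 1.65, 1.72, 2.34 and 1.64 times. Control 3 was the highest in this ratio, whose mean was 1.84 ± 0.338 and, with the longest transcripts as lengths, 3.86 ± 0.711. Col5a2 and Col5a1 followed at 270 ± 23.6 and 158 ± 21.7 TPM. Of all 44 collagen chains, 29 reached 1 TPM and 15 reached 100 TPM, beside 61.7% and 6.57% of all protein-coding genes.

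Basement membrane collagen was rich in the less common pair of chains. Col4a1 stood at 473 ± 55.4 TPM and Col4a2 at 220 ± 29.4, but Col4a5 came between them at 376 ± 39.4 and Col4a6 followed at 155 ± 20 TPM. Chains alpha-5 and alpha-6 are known to form a collagen IV network in smooth-muscle basement membranes. The remaining pair was low, with 26.1 ± 4.12 TPM for Col4a3 and 20.6 ± 3.39 for Col4a4. Each pair sits head to head on its chromosome, with annotated start sites 21 bases apart for Col4a1 and Col4a2 on chromosome 8, 1309 bases apart for Col4a5 and Col4a6 on chromosome X, and 72 bases apart for Col4a3 and Col4a4 on chromosome 1. Within pairs the ratios were steady: 2.16 ± 0.0761 for Col4a1 over Col4a2, 2.43 ± 0.103 for Col4a5 over Col4a6 and 1.27 ± 0.0736 for Col4a3 over Col4a4 (SD, n = 4).

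Laminin, the other basement membrane polymer, had clear leaders in some families and none in others. Lamb2 held 98.5% ± 0.173 of the beta chains with 582 ± 76.9 TPM, 68.7 ± 7.48 times Lamb1, or 43.3 ± 4.71 times with the longest transcripts as lengths. The alpha chains were divided, with 38.1% ± 2.05 for Lama4, 32.1% ± 1.13 for Lama2 and 68.1 ± 12.8 TPM for Lama5. Ranges of Lama4 and Lama2 overlapped. Lamc1 and Lamc3 were not separated either, at 76.2 ± 10.7 and 73.0 ± 15.9 TPM, and Lamc3 was the higher in control 1. Perlecan, from Hspg2, stood at 262 ± 43.6 TPM, nidogen-1 at 92.4 ± 9.37 from Nid1 and the multiplexin Col18a1 at 682 ± 52.6 TPM.

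Collagen VI, which forms beaded filaments around cells, showed how far lengths matter. Col6a1 stood at 289 ± 61.2 TPM, Col6a3 at 211 ± 28.4 and Col6a2 at 174 ± 30.4. The protein holds these 3 chains in equal number. Col6a1 exceeded Col6a2 by 1.65 ± 0.073 times with the deposited lengths and by 1.04 ± 0.046 times with the longest transcripts.

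Small proteoglycans and secreted regulators formed the rest of the abundant matrix. Osteoglycin, from Ogn, stood at 2227, 2593, 2689 and 1818 TPM and decorin, from Dcn, at 1128, 1365, 1402 and 950. Both proteoglycans bind collagen fibrils, and their ratio was nearly constant at 1.93 ± 0.0325 (SD, n = 4). By raw counts Dcn was ahead of Ogn. Biglycan followed at 417 ± 69.5 TPM from Bgn. Of the large proteoglycans, versican stood at 65.5 ± 8.54 TPM from Vcan and aggrecan at 16.8 ± 2.45 from Acan.

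Matricellular proteins, which signal to cells rather than build fibres, were prominent. The CCN genes Ctgf, Nov, Cyr61 and Wisp2 stood at 2827 ± 418, 1564 ± 116, 981 ± 243 and 570 ± 57.6 TPM. Sparc stood at 1757 ± 267 TPM, periostin at 1284 ± 49.1 from Postn, and the thrombospondin Comp at 155 ± 14.3, first of its family with 45.8%. Sost, which encodes the Wnt inhibitor sclerostin best known from osteocytes, stood at 1434, 1416, 1536 and 1319 TPM and ranked 69th (chr11:101962458-101967015, minus strand). The 4 values of Sost lay within a CV of 6.22%.

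The metalloproteinase inhibitors Timp2 and Timp3 each stood above all 18 matrix metalloproteinases examined, at 604 ± 67.1 and 451 ± 49.2 TPM. The most abundant matrix metalloproteinase transcript was Mmp23 at 307 ± 16.3 TPM, before gelatinase A from Mmp2 at 208 ± 21.8 and stromelysin from Mmp3 at 195 ± 43.1. Gelatinase B, Mmp9, stood at 2.45 ± 0.313 TPM and the elastase Mmp12 at 0.641 ± 0.103. Of the TIMPs, Timp3 led in place of Timp2 by counts and by longest transcripts.

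The machinery for making collagen was led by its chaperone. Serpinh1, which encodes HSP47, stood at 1913, 1808, 1993 and 1648 TPM, about the level of Col3a1. The endoplasmic reticulum chaperone calreticulin stood at 952 ± 98.3 TPM from Calr and protein disulphide isomerase at 572 ± 57.8 from P4hb. Prolyl 4-hydroxylase used P4ha1, at 173 ± 21.7 TPM, over P4ha2 at 35.4 ± 3.4 and P4ha3 at 0.735. Lysyl hydroxylase was spread over Plod2, Plod3 and Plod1, at 85.1, 54.4 and 31.5 TPM. Of the 29 genes in the list, 28 reached 1 TPM and 19 reached 100 TPM, beside 61.7% and 6.57% of all protein-coding genes.

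**Figure D3:**
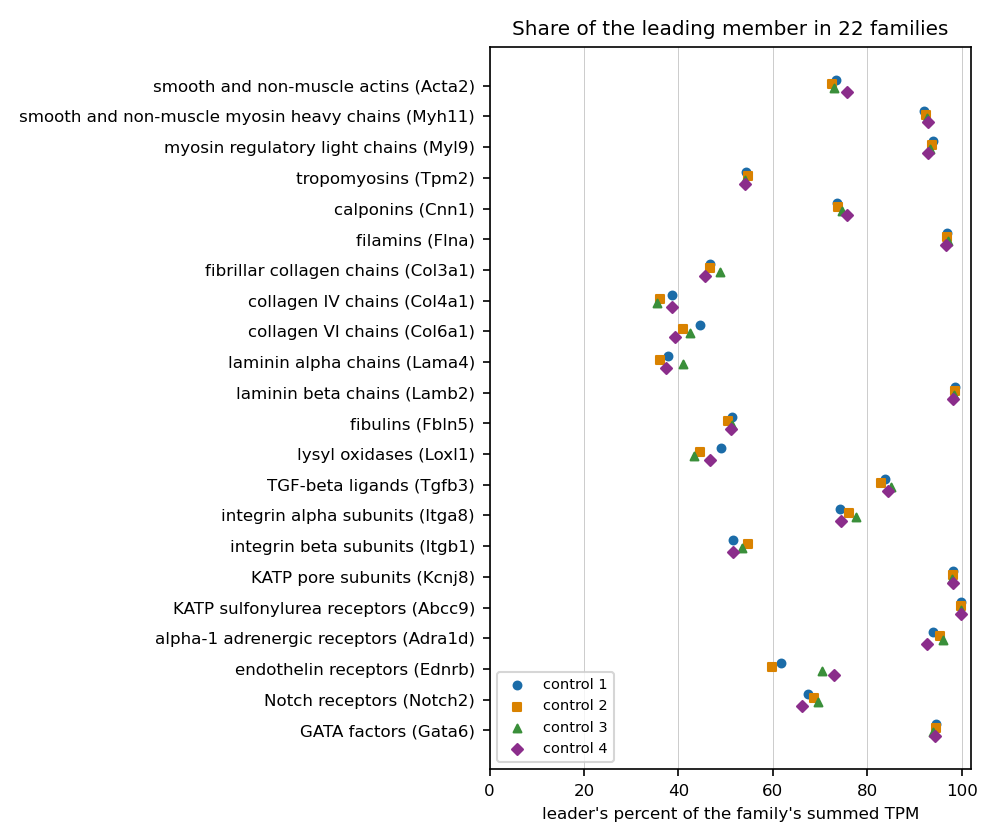
Share of the leading member in the summed TPM of its family (x axis, percent) for 22 families, with the leader in brackets and 1 point per control library. Shares are tightly grouped for Flna, Lamb2, Kcnj8 and Abcc9, and also for Tpm2 (54.1% to 54.7%) and Fbln5 (50.6% to 51.4%). They run from 59.9% to 72.9% for the endothelin receptors. A dominant leader need not be tight: Cox7a2, not shown, held 90.1% ± 7.29 of its family (SD over the libraries).

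Across all 75 families examined, the same member led in all 4 libraries in 67. The leader held at least 90% of the family in 19 families, from 50% to 90% in 39 and less in 17. The median SD of the leader's share was 1.58 percentage points, and 46 families had an SD under 2 points. Ranges of the first and second member overlapped in 17 families. With counts in place of length-scaled levels 66 families kept their leader, and with the longest reference transcript as length 69 did. The leader changed with the longest transcript in the tenascins, TIMPs, connexins, soluble guanylate cyclases, ferritins and Hey factors.

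Integrins, the receptors that join cells to matrix, were dominated by a single alpha chain. Itga8 stood at 2508, 2797, 2586 and 2021 TPM, 75.6% ± 1.54 of the 17 alpha subunits, and ranked 41st among all genes. The next, Itga9, stood at 320 ± 45.7 TPM, followed by Itga1 at 143 ± 12 and Itga5 at 111 ± 11.4. Its beta partner Itgb1 stood at 974 ± 103 TPM, so Itga8 exceeded this partner 2.54 ± 0.112 times. Itgb5 was close behind Itgb1 at 789 ± 64.3 TPM, with overlapping ranges. Caveolin, which shapes membrane pits, was Cav1 to 83.0% ± 0.458.

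ATP-sensitive potassium channels, the target of minoxidil, were almost wholly of the subunit pair known from vessels. The pore subunit Kcnj8 stood at 103, 94.3, 81.5 and 67.3 TPM and its paralog Kcnj11 at 1.68 ± 0.241. The sulfonylurea receptor Abcc9 stood at 246, 259, 224 and 177 TPM and Abcc8 at 0.183 ± 0.0356. Kcnj8 thus made up 98.1% ± 0.161 of the pore and Abcc9 99.9% ± 0.0202 of the receptor transcripts. Both members of the vascular pair lie on chromosome 6, from 142564837 to 142571614 and from 142587862 to 142702315. Abcc9 exceeded Kcnj8 by 2.63 ± 0.164 times.

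Other ion handling families also had leading members. The large-conductance potassium channel had Kcnma1 as pore at 36.4 ± 4.82 TPM and Kcnmb1 as beta subunit at 72.5 ± 8.22, and the other beta subunits were below 0.3 TPM. The L-type calcium channel Cacna1c stood at 9.91 ± 2.26 TPM. Calcium stores used Atp2a2 for uptake, with 88.4% ± 0.799 of the SERCA pumps, Itpr1 for release at 101 ± 10.5 TPM, and Ryr2 among ryanodine receptors at 17.8 ± 2.41 TPM.

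Receptors for vasoactive signals were at low levels, with few exceptions. The alpha-1 adrenergic receptor was Adra1d to 94.5% ± 1.52, at 38.7, 39.3, 32.6 and 34.9 TPM. The endothelin receptors Ednrb and Ednra stood at 6.46 ± 1.31 and 3.26 ± 0.624 TPM. The angiotensin receptors Agtr1a and Agtr1b, closely related copies, stood at 2.29 ± 0.652 and 2.01 ± 0.239 TPM and were not separated. The nitric oxide receptor subunits Gucy1b3 and Gucy1a3 were far higher, at 170 ± 26.3 and 145 ± 30.2 TPM, in a ratio of 1.18 ± 0.106, which was 0.972 ± 0.0875 with the longest transcripts as lengths.

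Growth factor and Notch signalling also had leading members. Pdgfrb stood at 130 ± 23.1 TPM and Pdgfra, an adventitial fibroblast marker, at 56.3 ± 11.6. The ligand Pdgfd held 78.4% ± 1.95 of its family at 344 ± 39.4 TPM, and Pdgfb stood at 8.73 ± 1.98. Notch2 stood at 65.9 ± 11.4 TPM, Notch3 at 16.4 ± 2.8, Notch1 at 10.9 ± 2.13 and Notch4 at 3.56 ± 0.389. The Notch targets Heyl and Hey2 were not separated, at 49.6 ± 10.1 and 44.1 ± 7.03 TPM.

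Energy metabolism showed a mixed pattern of isoforms. Creatine kinase was the brain-type Ckb to 98.4% ± 0.505 at 294 ± 35.5 TPM, and lactate dehydrogenase was Ldha to 63.5% ± 2.79. Cytochrome oxidase used the widely expressed Cox6a1, Cox7a2, Cox8a and Cox4i1. The muscle and brown-fat isoforms were variable. Cox8b stood at 166, 79.0, 15.6 and 209 TPM and Cox7a1 at 67.3, 25.2, 3.76 and 65.0, both lowest in control 3. The insulin-responsive transporter Slc2a4 was also lowest there, at 21.4, 17.3, 11.3 and 22.1 TPM, beside 24.4 ± 3.59 for Slc2a1. Cox8b and Cox7a1 are themselves members of the brown-adipocyte list used below.

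Of the 46 listed transcription factors of the vascular wall, 41 reached 1 TPM, beside 61.7% of all protein-coding genes. Foxs1 led the list at 88.5 ± 16.9 TPM, followed by Foxc1 at 81.5 ± 10.5 and Klf15 at 80.0 ± 13.7. The smooth-muscle coactivator myocardin, from Myocd, stood at 90.1, 94.0, 72.2 and 59.1 TPM, with 78.9% ± 0.891 of its family, and its partner Srf at 55.9 ± 10.3. Gata6 held 94.4% ± 0.303 of the GATA factors at 67.3 ± 4.51 TPM, and Gata4 stood at 0.11. The endothelial factor Erg stood at 42.4 ± 9.92 TPM. Tbx18, known from mural cells, stood at 52.1 ± 11.6 TPM, while the cardiac factor Hand1 was at 0.118.

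Hox genes, which record position along the body axis, were detected mainly up to paralog group 9. Clusters A and B held 91.5% ± 0.443 of the Hox transcripts. The highest were Hoxb2 at 23.6, 28.6, 28.99 and 25.03 TPM, Hoxb6 at 20.7, 24.8, 20.5 and 19.9, Hoxa7 at 23.6, 23.3, 18.6 and 16.5 and Hoxa5 at 15.9, 19.3, 13.98 and 14.7. Summed by paralog group, the level was 33.98 ± 5.06 TPM in group 7, 6.46 ± 0.9 in group 8, 4.87 ± 0.786 in group 9, 1.09 ± 0.319 in group 10 and 0.109 to 0.224 in groups 11 to 13. Groups 9 to 13 together held 3.85% ± 0.235. Of 23 genes in groups 1 to 8, 20 reached 1 TPM, and of 16 in groups 9 to 13, 2 did, which were Hoxa9 and Hoxb9. Of all protein-coding genes, 61.7% reached 1 TPM. The level within a cluster did not change evenly with position: Hoxa6 stood at 4.91 TPM between Hoxa5 at 15.98 and Hoxa7 at 20.5.

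**Figure D4:**
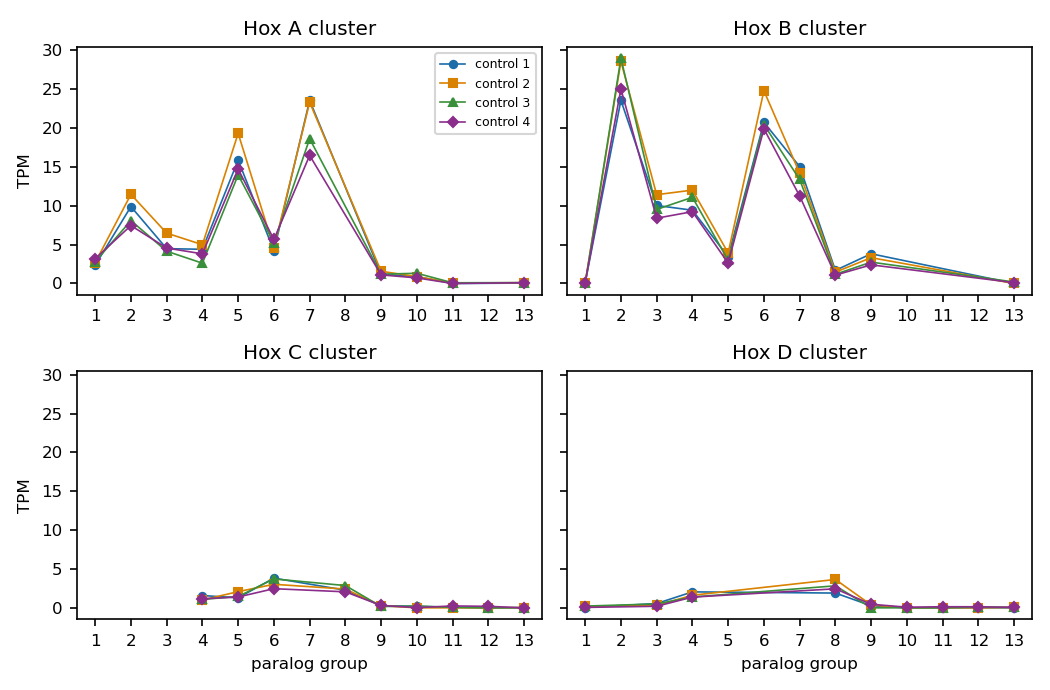
TPM (y axis) of the Hox genes by paralog group (x axis) in the 4 clusters, with 1 line per control library. Levels reach 28.99 TPM in cluster B and 23.6 in cluster A, stay under 4 TPM in clusters C and D, and are near 0 from group 11 onwards in all 4 libraries.

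Marker lists placed the tissue as smooth muscle with adventitia. In bulk tissue fewer cells of a type and less RNA per cell cannot be told apart. The 12 smooth-muscle markers, all present, summed to 43707, 43641, 39411 and 39234 TPM, an order that changed with TMM factors, where control 4 was highest. Adventitial fibroblast markers summed to 7616 ± 878 TPM, of which gelsolin, from Gsn, made up 44.7%, and endothelial markers to 620 ± 54.9, led by Pecam1 at 233 TPM. Macrophage markers summed to 2354 ± 372 TPM, with Lyz2 at 1209 and C1qa at 364 TPM. The macrophage sums of controls 2 and 3 were 2547 and 2525 with TMM factors, above 1992 and 2277 in controls 1 and 4. T-cell and B-cell lists were at 7.09 and 6.90 TPM in sum, and the mast-cell list at 37.1.

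Neighbouring tissues were present to different degrees. Fat was the clearest: the adipocyte list summed to 978, 1106, 549 and 1479 TPM, led by Cfd, and the brown-adipocyte list to 644, 316, 111 and 729. Control 3 was lowest in both, also with TMM factors. Cardiac genes summed to 38.9, 63.2, 74.7 and 72.0 TPM, of which the atrial light chain Myl7 gave 7.42, 17.98, 26.2 and 21.7. The cardiac list also holds Ryr2, the leading ryanodine receptor named above, so its sum cannot be read as heart tissue alone. Skeletal muscle, mesothelial, lung, thymus and neuron lists each summed to under 15 TPM in every library. The chondrocyte list owed 86.1% of its 181 TPM to Comp, with Col2a1 at 0.407.

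Immediate-early and heat-shock genes, known to respond quickly to stress of a cell, were well expressed in all 4 libraries. All 24 immediate-early genes reached a mean of 1 TPM, beside 61.7% of all protein-coding genes. They summed to 3996, 4719, 4384 and 3348 TPM. With TMM factors the sums were 3817, 4315, 4356 and 3805, so the highest library changed from control 2 to control 3. Fos stood at 341, 503, 755 and 443 TPM, Junb at 316, 469, 447 and 340, and Btg2 at 587, 801, 707 and 479. The heat-shock list summed to 12179, 10552, 19622 and 10634 TPM. Control 3 was highest for 15 of its 16 genes, on the TMM scale too. Of all genes at 10 TPM or more, 15.25% had their highest value in control 3, or 26.3% with TMM factors. Hspa1b stood there at 4959 against 1598 to 2516 TPM and Dnajb1 at 390 against 89.8 to 163. Hspa1a and Hspa1b are near-identical copies and share reads in this counting. The 19 clock genes summed to 545, 654, 587 and 509 TPM, a mean of 574 ± 62.4. A sum does not show whether the single genes moved together.

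**Figure D5:**
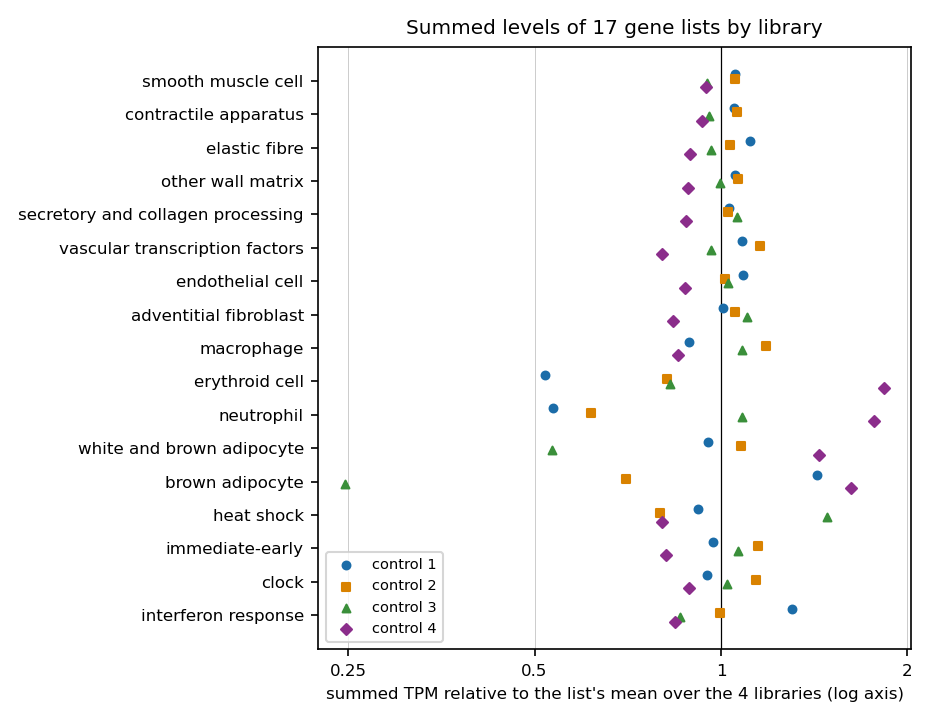
Summed TPM of 17 gene lists in each control library, divided by the list's mean over the 4 libraries (x axis, log scale), with 1 point per library. Wall lists lie near 1, while the erythroid list is highest in control 4, as are 8 of its 8 members. The neutrophil list is also highest there, but only 4 of its 8 members are, and S100a9 gives 65.5% of its sum. The brown-adipocyte list is lowest and the heat-shock list highest in control 3, and the interferon list is highest in control 1.

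Spread between libraries was modest for most genes. Over the 8891 genes at 10 TPM or more the median CV was 12.7%, and with TMM factors, which take out the shift of control 4, it was 7.81%. Counting error alone would give a median CV of 2.16%. On the TMM scale the median CV fell from 14.1% at 1 to 10 TPM to 7.97% at 10 to 100 and 6.91% at 100 to 1000 TPM, and was 7.86% above that. A CV of 50% or more was found for 77 genes on the TPM scale and 73 on the TMM scale, under 1% of those examined. A CV from 4 values is itself imprecise.

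The genes of largest spread fell into a few named sets. Embryonic and minor globins came first: Hba-x stood at 0, 0.424, 0.148 and 366 TPM, Hbb-y at 0.102, 14.6, 0 and 56.6, and Hbq1b at 0.178, 4.39, 0.766 and 143. Control 4 was highest in each. Hba-x, Hbq1b and Hbb-y each passed the mean of 10 TPM only through control 4, although Hbb-y also stood at 14.6 TPM in control 2. Their highest library therefore follows from that filter, and their first places follow from it in part. Brown-fat and lipid genes followed, all lowest in control 3, with Ucp1, the uncoupling protein, at 211, 73.2, 7.47 and 238 TPM, and Cpt1b, Gpd1, Chchd10, Apoc1, Cox7a1 and Cox8b in the same position. Ucp1, Cox7a1 and Cox8b are members of the brown-adipocyte list. The separate adipocyte list, which holds none of these 7 genes, was also lowest in control 3, and its part in them was not tested.

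Immune genes made up another set. Ccl8, a monocyte-attracting chemokine, stood at 20.9, 103, 13.9 and 11.5 TPM, and the interferon-induced GTPases Iigp1 and Tgtp2 were also highest in control 2, at 80.5 and 41.3 TPM. H2-Eb1, a class II antigen presentation gene at place 30 and so outside the 15 of largest spread, was also highest in control 2. It stood at 188, 370, 85.5 and 87.1 TPM. Ifit1, induced by type I interferon, was highest in control 1 at 35.5 against 4.84 to 8.04 TPM. It passed the mean of 10 TPM only through control 1, so its highest library follows from that filter. Of 15 interferon response genes, 12 had their highest value in control 1, or 13 with TMM factors. Of all genes at 10 TPM or more, 31.96% and 32.1% did. Myl6b completed the 15. Of these 15 genes, 14 were also among the 15 of largest spread on the TMM scale. Leaving out control 3 left 8 of them in place and leaving out control 4 left 10.

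The genes of smallest spread could not be named stably. On the TPM scale Adipor1, which encodes an adiponectin receptor, was first at 98.4, 99.5, 99.99 and 98.6 TPM, ahead of Ccdc134, Prss57, Pkn3 and the respiratory subunit Ndufv2. None of the 10 least variable genes on the TPM scale was among the 10 on the TMM scale, where Nup205, Rbbp8, Rhoa and Sec63 were among them. Rhoa stood at 131, 137, 124 and 109 TPM, lowest in control 4.

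The drug-treated libraries are set beside these values as ranges only, with no comparison. The adult globins took 2.09% to 3.37% on drug and 1.20% to 2.45% off drug, beside 2.76% to 9.72% in the controls. The repeat-like models took 1.45% to 9.60% and 3.35% to 13.3%. Contractile genes held 6.29% to 7.11% and 6.09% to 6.44%, and elastic fibre genes 0.474% to 0.572% and 0.345% to 0.397%. The family leader by mean share was the same as in the controls in 73 of 75 families in each treated group. Among the exceptions were the Hox B and C clusters on drug and the angiotensin receptors off drug. Kcnj8 and Abcc9 held at least 97.3% and 99.8% of their families in every library of the series.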

How the data were processed

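RNA-seq counts of mouse aorta were analysed in 4 control libraries, with 8 treated libraries given as ranges. Reads were counted per gene over exons by the authors with featureCounts 1.4.6-p3 on GENCODE M13, per the file headers, and the genome build was GRCm38, per the submitters' processing notes. Multi-mapped and overlapping reads were counted, duplicates were ignored and strand was not used, per the file headers, so near-identical, overlapping and antisense genes share reads. The deposited log2 values equal the log2 of the count over a size factor plus 1, within 5e-09, and were used only for the authors' size factors.

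TPM were computed from the deposited counts and exon lengths with Python 3.11.15, pandas 2.3.3 and numpy 2.4.6, over protein-coding genes. TMM factors came from edgeR 4.0.16 in R 4.3.3, exon overlaps from bedtools 2.31.1 and promoters from RefSeq. Spread was ranked by the SD of log2(TPM + 0.1) among genes at a mean of 10 TPM or more. The spread script was tested on simulated data. No groups were compared, so no test between groups was run. Dixon's critical value was used only to flag a library lying apart from the others. The labels describe the libraries as separate samples and do not say more, so the SD may be partly technical.

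Genes named were the 30 of highest mean TPM, Eln, leading and near-zero members of the families and lists, and the 15 of largest and 10 of smallest spread. Sost, Csrp2, H2-Eb1 and the genes with shared exons were added after their values were seen. The longest-transcript lengths, the reduced denominator and the list sums with TMM factors were alternatives chosen after seeing the data. Members and lists were chosen with earlier results of these data known. Of the list symbols, 3 had no protein-coding entry. A few genes that these rules name are not reported here.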

Additional observations from a re-analysis of the deposited data

Results flagged for a closer look

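In each of the following, 1 of the 4 control libraries lay apart from the other 3, with a gap to its nearest neighbour, relative to the group's range, above Dixon's critical value. Chance sets apart about 1 in 20 such groups, and 4 of 149 results examined were set apart. The share of Myl6 in the myosin essential light chains was 90.88% in control 4 and 98.81% to 99.11% in the others. The share of Nr2f2 in the COUP-TF factors was 63.47% in control 4 and 73.61% to 74.98% in the others. The share of Atp2a2 in the SERCA pumps was 87.2% in control 1 and 88.78% to 88.83% in the others. The share of Prkg1 in the cGMP-dependent kinases was 98.53% in control 3 and 99.42% to 99.51% in the others.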

How the results depend on the processing

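The share of protein-coding TPM in the 10 most abundant genes was 3.351% with all annotated genes in the denominator, 8.421% without length scaling, 9.457% without repeat-like models, adult globins and mitochondrial genes, and 14.04% to 17.75% when each control was left out in turn. The share of protein-coding TPM in the 100 most abundant genes was 7.866%, 26.18%, 28.17% and 36.08% to 39.82% under the same changes. The number of protein-coding genes at 1000 TPM or more was 19 with all annotated genes in the denominator and 110 to 120 with a control left out. The Eln level was 50.14 TPM with all annotated genes, 644.2 on the same scale without length scaling, 416.1 TPM with the longest reference transcript as length, and 212.1 to 257.6 TPM with a control left out. The median CV over protein-coding genes at 10 TPM or more was 7.811% with TMM factors, 7.827% with the authors' size factors, 8.274% with the reduced denominator and 8.608% to 14.02% with a control left out, lowest without control 4. The number of families led by the same member in all 4 control libraries was 67 to 71 with a control left out. Of the 15 genes of largest spread, 4 were kept when genes from 1 TPM were admitted. No paired analysis was possible because no groups were compared, and no result comes from a test between groups. Only 4 libraries support each SD, and between 1 and 10 TPM counting error alone gives a median CV of 6.08%.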

Other observations

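Some of the genes of largest spread in the controls were read in all 12 libraries, as values only. The counts of Hba-x, an embryonic globin, were 0, 6, 2 and 7003 in the controls, 2854, 0, 949 and 0 in the libraries on drug, and 3, 1108, 1118 and 6 in those off drug. The counts of Hbb-y, another embryonic globin, were 1, 139, 0 and 731 in the controls, 347, 76, 0 and 4 on drug, and 5, 3, 0 and 0 off drug. The counts of Hbq1b, a minor globin, were 2, 48, 8 and 2119 in the controls, 46, 6, 6 and 8 on drug, and 3, 18, 8 and 13 off drug. The counts of Myl6b were 572, 550, 687 and 9826 in the controls, 1057, 6227, 4289 and 8630 on drug, and 7349, 9534, 10731 and 1334 off drug. The counts of Ucp1 were 5365, 1807, 176 and 7932 in the controls, 2837, 1123, 2090 and 4054 on drug, and 276, 337, 6143 and 8457 off drug. Hba-x and Myl6b had high and low libraries in every group, whereas Hbq1b was high in control 4 alone among these libraries and Hbb-y was at 5 counts or fewer in every library off drug.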
